A study of Mus musculus with 6 samples.

Results

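The G2/M and mitosis genes encode the kinases, kinetochore proteins, spindle motors and chromosome-packing factors that a cell needs to divide. All 45 symbols on the list used here were present in the deposited table of 24495 gene symbols, and all 45 had enough counts to be tested. They were taken by name, as genes of known mitotic function. RNA was measured in cultured mouse spermatogonial stem cells (SSCs), the self-renewing germ cells of the testis, which came from DBA2 pups at postnatal days 5 to 8. The cultures of the first group received 2 uM EPZ5676 (pinometostat), which blocks DOT1L, the enzyme that methylates lysine 79 of histone H3, for 2 weeks. The cultures of the second group received 0.2% ethanol, the vehicle, for the same time. Each group had 3 libraries, which the series calls biological triplicates. The labels do not say whether libraries that share a number came from the same culture, nor what other cells the cultures contained. The comparison asks whether these transcripts differ after DOT1L inhibition.

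Entry into mitosis is driven by the kinase CDK1 bound to a B-type cyclin. CDK1 activity condenses chromosomes and builds the spindle, and the anaphase-promoting complex (APC/C) then destroys the cyclins so that chromosomes separate and the cell splits. Most genes of this programme are transcribed in waves that peak in G2 and mitosis, so their level in a bulk sample follows the fraction of dividing cells as well as the amount of RNA in each. In these bulk libraries, fewer cells in G2/M and less RNA per cell cannot be told apart.

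The promoters of such genes are known for a pair of short elements, the cell cycle genes homology region (CHR), bound by the MuvB core complex with B-MYB, and the CCAAT box, bound by NF-Y. RefSeq promoter windows on GRCm38.p6, from 250 bases before to 50 bases after an annotated start, were at hand for 39 of the 45 genes, 43 windows in all. They were searched on both strands for TTTGAA, the common form of the CHR, and for CCAAT. The words can share at most an end base where they meet, and a window could hold both. TTTGAA was found in 31 of 43 windows (72.1%), against 17.9% of all 32851 windows in the table and 12.0% of the 14435 windows of genes tested here. CCAAT was found in 33 windows (76.7%), against 37.4% of all windows. Both words stood in 25 windows (58.1%), against 6.95% of all windows. Cdc25c, Aurkb, Tpx2, Dlgap5, Smc4 and Cdca2 had no window in the table.

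The 6 stretches below are examples that carry both words, from genes described below. They were not chosen by the size of the shift. Not every member has the words, and Birc5, Nuf2, Nusap1 and Tacc3 had neither in their windows. Each runs from 120 bases before the start base through 30 bases from it, 5′ to 3′ on the gene's strand, with TTTGAA and CCAAT in capitals as read on either strand (TTCAAA and ATTGG are their complements). They cover Cdk1 (chr10:69352883-69353032, minus strand), Ccnb2 (chr9:70421525-70421674, minus), Ttk (chr9:83834569-83834718, plus), Kif23 (chr9:61946770-61946919, minus), Cdc20 (chr4:118437314-118437463, minus) and Top2a (chr11:99024160-99024309, minus), all on GRCm38.p6.
Cdk1: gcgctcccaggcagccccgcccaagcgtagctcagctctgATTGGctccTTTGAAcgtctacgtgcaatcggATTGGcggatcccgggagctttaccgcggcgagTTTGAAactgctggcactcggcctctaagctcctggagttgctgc
Ccnb2: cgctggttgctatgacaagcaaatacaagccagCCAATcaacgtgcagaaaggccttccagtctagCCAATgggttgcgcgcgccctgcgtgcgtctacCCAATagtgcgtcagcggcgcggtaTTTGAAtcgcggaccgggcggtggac
Ttk: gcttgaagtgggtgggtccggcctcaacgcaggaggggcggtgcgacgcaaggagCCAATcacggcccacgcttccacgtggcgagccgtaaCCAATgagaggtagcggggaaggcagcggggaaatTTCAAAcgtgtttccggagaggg
Kif23: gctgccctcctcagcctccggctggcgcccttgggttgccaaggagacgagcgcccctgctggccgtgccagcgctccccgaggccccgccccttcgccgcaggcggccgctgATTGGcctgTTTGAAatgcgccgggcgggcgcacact
Cdc20: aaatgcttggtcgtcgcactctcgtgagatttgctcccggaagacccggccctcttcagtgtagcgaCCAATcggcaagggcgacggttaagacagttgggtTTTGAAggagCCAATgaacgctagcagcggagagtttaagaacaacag
Top2a: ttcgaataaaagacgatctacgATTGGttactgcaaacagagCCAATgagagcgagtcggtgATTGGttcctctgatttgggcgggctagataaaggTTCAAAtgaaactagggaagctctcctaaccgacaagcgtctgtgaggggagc
In Ccnb2, CCAAT began at positions -87, -54 and -21, counted with the start base as 0, so that neighbouring copies lay 33 bases apart, and TTTGAA began at 4 and, outside the stretch shown, at -167. In Ttk, the copies of CCAAT began at -65 and -28 and TTTGAA at 7. Kif23 had a single CCAAT at -7 and TTTGAA at 2. The 24 genes with both words in a window had a median of -0.07 in log2 fold change, EPZ5676 over ethanol, and the 15 with a window but without both had a median of -0.10. A match describes letters in this window only.

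Library totals ran from 17784332 to 54645903 gene counts, the highest in EPZ5676 replicate 2 and the lowest in ethanol replicate 2. Each member had between 86 and 54189 counts in a library. Both replicate 2 libraries stood apart from the other 4 on the first principal component of all genes, which held 48.7% of the variance. The sum of the fibroblast markers was highest in replicate 2 of each group, though not every marker was (values below). Levels are CPM, that is, counts scaled by TMM-adjusted library size, and log2 fold changes are EPZ5676 over ethanol. Spermatogonial markers were high in both groups, with summed CPM over 11 genes of 4544 ± 64.4 with EPZ5676 and 4539 ± 261 with ethanol (SD, n = 3 each). Sertoli markers summed to 30.8 to 41.4 CPM over 7 genes with EPZ5676 and 35.8 to 49.2 CPM with ethanol.

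The mitotic genes differed little between the groups, and slightly more often toward lower values with EPZ5676. The 45 genes together made up 7655, 8050 and 7730 CPM in EPZ5676 replicates 1, 2 and 3, and 7990, 8135 and 8139 CPM in ethanol replicates 1, 2 and 3. The groups overlapped, because EPZ5676 replicate 2 lay above ethanol replicate 1, and the ratio of the means was 0.966. The median log2 fold change of the 45 genes was -0.10, against -0.0066 over all 14855 genes tested. Of the 45 genes, 34 (75.6%) had a negative log2 fold change, against 51.7% of all genes, and 11 were positive, against 48.3% of all genes. The middle part of the list lay between -0.16 and -0.00079 (quartiles), and the extremes were -0.37 (Psrc1) and 0.29 (Hmgb2). In 33 of the 45 genes the shift was smaller than the SD between libraries of the more variable group on the log2 scale. That SD includes differences between replicate numbers that both groups share, and Kif23 is among the 33 although it was lower in all 3 pairs.

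None of the 45 genes passed the quasi-likelihood test of edgeR, with p-values adjusted over all genes (Benjamini-Hochberg), in either direction, and 0 of 14855 genes (0% lower, 0% higher) did. The smallest adjusted p of a member was 0.596. DESeq2 called 0 members, against 0.188% of all genes lower and 0.148% higher, and limma-voom called 0 members and 0 of all genes. At an unadjusted p under 0.05 the edgeR test gave 3 members lower (6.67%), against 3.57% of all genes, and 1 higher (2.22%), against 3.84% of all genes. These counts changed with the libraries and the filter used. A fit with 1 library left out also has 3 residual degrees of freedom instead of 4, and the 2 effects were not told apart. The count lower was 0 without EPZ5676 replicate 1, EPZ5676 replicate 3, ethanol replicate 1 or ethanol replicate 3. It was also 0 with no filter on low counts. In those settings 2.05% to 2.9% of all genes were lower at that p. The count of members lower was 6 (13.3%) without EPZ5676 replicate 2, against 3.92% of all genes. It was 11 (24.4%) without ethanol replicate 2, against 5.53% of all genes. The count higher was 2 without EPZ5676 replicate 3, against 4.74% of all genes, and 0 without ethanol replicate 1, against 2.52%. With the replicate number as a block in the fit, the edgeR test called 0.33% of all genes lower and 0.323% higher but still 0 members, with a smallest adjusted p of 0.0884, that of Kif23. At an unadjusted p under 0.05 that fit gave 11 members lower (24.4%), against 9.51% of all genes, and 1 higher (2.22%), against 9.01% of all genes. The blocked count lower was 1 (2.22%) without pair 1, against 4.15% of all genes, and 22 (48.9%) without pair 2, against 10.4%. It was 4 (8.89%) without pair 3, close to the 8.83% of all genes. The blocked count higher was 3 without pair 3, against 10.9% of all genes.

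The precision was high enough to bound the shifts. The median SE of a member's log2 fold change was 0.089, against 0.146 over all genes. The 95% interval lay within 1.5-fold in both directions for 41 of the 45 genes and within 2-fold for all 45. With the replicate block, the interval lay within 1.5-fold for 43 genes. In all, 3 members (6.67%), Psrc1, Cdc25c and Hmgb2, differed by more than 1.2-fold, against 21% of all genes, which include less precisely measured ones. The share was 0.990% for 101 other mitotic genes and 4.65% for 43 S phase genes (both lists are described below). The median SE of those lists, 0.093 and 0.091, was near that of the members.

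**Figure D1:**
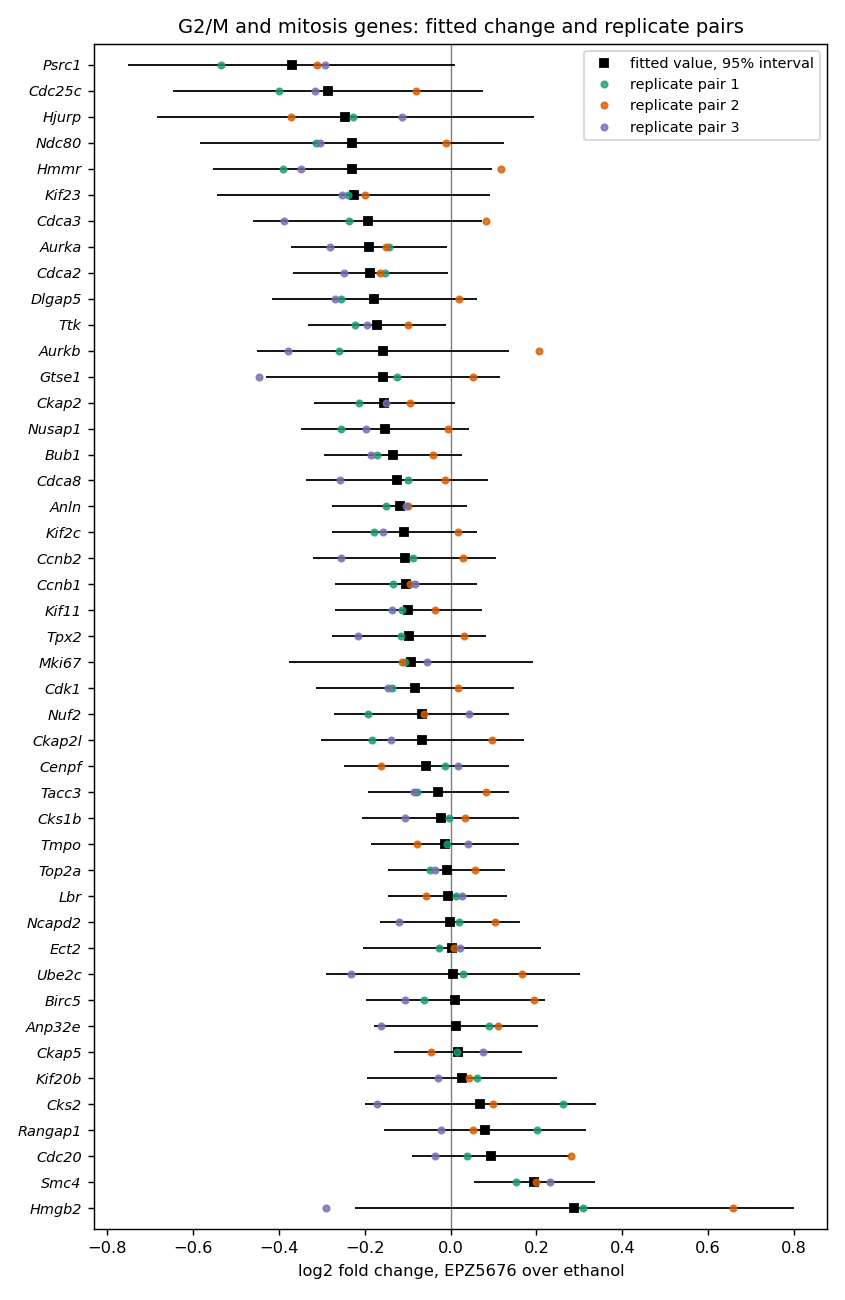
Log2 fold change of each of the 45 G2/M and mitosis genes, EPZ5676 over ethanol. Black squares are the fitted values with 95% intervals, and coloured points are the differences within replicate pairs 1, 2 and 3. Most squares lie left of 0, from -0.37 for Psrc1 to 0.29 for Hmgb2, and most intervals cross 0, with those of Aurka, Cdca2, Ttk and Smc4 as the exceptions.

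In the CDK1 module, no gene had groups that stood apart, against 7.64% of all genes lower and 7.22% higher. Cdk1, the kinase itself, was at 87.1, 109 and 97.2 CPM in EPZ5676 replicates 1, 2 and 3, and at 95.8, 108 and 108 CPM in ethanol replicates 1, 2 and 3. Ccnb1, which encodes the main mitotic cyclin, was at 157, 159 and 148 CPM with EPZ5676, and at 172, 170.2 and 157 CPM with ethanol. Ccnb2, its paralog, was at 85.05, 78.7 and 74.5 CPM with EPZ5676, and at 90.4, 77.1 and 88.9 CPM with ethanol. All 3 genes overlapped between groups, and the log2 fold changes were -0.08 ± 0.10 (SE) for Cdk1, -0.10 ± 0.07 for Ccnb1 and -0.11 ± 0.09 for Ccnb2. Adjusted p in edgeR's quasi-likelihood test was 0.888, 0.782 and 0.830 for these 3. Ccnb1 was below its ethanol partner in all 3 pairs, while Cdk1 and Ccnb2 were not below it in pair 2. The annotation lists a pseudogene for each cyclin, so reads may be shared.

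The other members of the module had smaller or more uneven values. Cks1b and Cks2 encode small subunits that bind CDK1 and help it recognise phosphorylated substrates. Cks1b was at 72.2, 76.8 and 67.9 CPM with EPZ5676 and at 72.4, 74.99 and 73.1 CPM with ethanol, so the ethanol libraries lay inside the range of the EPZ5676 libraries. Cks1b has a near-identical retrocopy, Cks1brt, in the count table, and reads could be split between them. Cks2 was at 25.3, 23.5 and 20.3 CPM with EPZ5676 and at 21.1, 22.0 and 22.8 CPM with ethanol, with pairs that went in opposite directions. Cdc25c encodes the phosphatase that removes the inhibitory phosphates from CDK1. It was at 22.1, 19.1 and 22.7 CPM with EPZ5676 and at 29.2, 20.2 and 28.3 CPM with ethanol. The low ethanol replicate 2 lay among the EPZ5676 libraries, each EPZ5676 library was below its partner, and the log2 fold change was -0.29 ± 0.16 (SE, edgeR adjusted p = 0.722).

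Among the Aurora kinases, Aurka had EPZ5676 libraries that all lay below the ethanol libraries. Aurka, the kinase of centrosomes and spindle poles, was at 79.3, 84.7 and 75.1 CPM with EPZ5676, and at 87.6, 93.9 and 91.2 CPM with ethanol. Its log2 fold change was -0.19 ± 0.08 (SE), with an unadjusted p of 0.0433 and an adjusted p of 0.660 in the edgeR test. Tpx2, which encodes the activator that holds Aurora A on the spindle, was at 132, 149.6 and 131 CPM with EPZ5676 and at 143, 147 and 152 CPM with ethanol, and overlapped.

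The chromosomal passenger complex corrects faulty spindle attachments, with Aurora B as its kinase. Aurkb was at 80.5, 80.4 and 72.6 CPM with EPZ5676, and at 96.4, 69.7 and 94.3 CPM with ethanol. The 2 high ethanol libraries were above all EPZ5676 libraries and ethanol replicate 2 was below all of them, so the groups overlapped (log2 fold change -0.16 ± 0.13, SE). Birc5, the gene of survivin, was at 49.0, 55.8 and 50.3 CPM with EPZ5676 and at 51.2, 48.7 and 54.1 CPM with ethanol, with no ordering of the groups. Cdca8, the gene of borealin, had a log2 fold change of -0.13 ± 0.09 (SE) and overlapping groups.

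The kinetochore, centromere and checkpoint genes were the role group with the lowest median, -0.15. All 6 had negative log2 fold changes, against 51.7% of all genes. No test of this group against the others was made. Ttk encodes MPS1, the kinase that starts the spindle checkpoint. It was at 95.5, 103 and 96.6 CPM with EPZ5676, and at 111, 109.9 and 111 CPM with ethanol. The ethanol libraries were close together and all above the EPZ5676 libraries, with a log2 fold change of -0.17 ± 0.07 (SE), an unadjusted p of 0.0399 and an adjusted p of 0.659 in the edgeR test. Bub1, another checkpoint kinase gene, was at 245, 239.6 and 242 CPM with EPZ5676 and at 275, 246 and 275 CPM with ethanol. The groups did not overlap, but ethanol replicate 2 lay only just above the EPZ5676 libraries.

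Ndc80 and Nuf2 encode partners in the rod that links kinetochores to microtubules. Ndc80 was at 88.9, 76.1 and 93.0 CPM with EPZ5676, and at 111, 76.7 and 115 CPM with ethanol. The groups overlapped through ethanol replicate 2, all 3 pairs were lower with EPZ5676, if only slightly in pair 2, and the log2 fold change was -0.23 ± 0.15 (SE). Nuf2 had a log2 fold change of -0.07 ± 0.09, and the pairs disagreed in direction. Hjurp encodes the chaperone that deposits the centromeric histone CENP-A. It was at 16.1, 21.6 and 17.2 CPM with EPZ5676 and at 18.9, 28.0 and 18.6 CPM with ethanol. Both replicate 2 libraries were the highest of their group, and each EPZ5676 library was below its partner. Cenpf, a large kinetochore protein gene, had a log2 fold change of -0.06 ± 0.08.

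The 3 ubiquitylation genes were mixed in sign, and all had overlapping groups. Cdc20, the coactivator of the APC/C, was at 262, 271 and 239 CPM with EPZ5676, and at 255, 223 and 246 CPM with ethanol. Ube2c, the APC/C's ubiquitin-conjugating enzyme, was at 42.7, 48.4 and 34.4 CPM with EPZ5676 and at 41.8, 43.1 and 40.3 CPM with ethanol. In both genes the groups overlapped, with log2 fold changes of 0.09 ± 0.08 (SE) and 0.0051 ± 0.13. In the annotation 22.8% of the Ube2c exon length lies opposite exons of Tnnc2, and use of strand in counting is not given. Cdca3, a trigger of mitotic entry, had a log2 fold change of -0.19 ± 0.12.

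Among the 12 spindle motor and microtubule genes, 10 (83.3%) had negative log2 fold changes, against 51.7% of all genes. Psrc1, Ckap2 and Nusap1, 3 of the 12 (25%), had lower EPZ5676 libraries with no overlap, against 7.64% of all genes. Psrc1, which encodes a spindle protein that controls microtubule dynamics, was at 4.40, 5.62 and 4.87 CPM with EPZ5676, and at 6.41, 7.001 and 5.98 CPM with ethanol. It had the lowest counts of the list, 86 to 310 per library, and a log2 fold change of -0.37 ± 0.17 (SE, edgeR adjusted p = 0.672). Ckap2, a microtubule-stabilising protein gene, was at 148, 145 and 152 CPM with EPZ5676 and at 172, 155 and 169 CPM with ethanol. Nusap1, the gene of a microtubule bundling protein, was at 51.7, 57.7 and 55.5 CPM with EPZ5676 and at 61.7, 57.9 and 63.7 CPM with ethanol. In Nusap1 the gap between the groups was small, since EPZ5676 replicate 2 and ethanol replicate 2 were nearly equal.

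Hmmr, a spindle assembly gene, was at 58.4, 58.1 and 61.7 CPM with EPZ5676, and at 76.6, 53.5 and 78.6 CPM with ethanol. Ethanol replicate 2 was the lowest of all 6 libraries, so the groups overlapped despite a log2 fold change of -0.23 ± 0.14 (SE). Kif11, the motor that pushes spindle poles apart, was at 171, 166 and 177 CPM with EPZ5676 and at 185, 171 and 195 CPM with ethanol, and was below its ethanol partner in all 3 pairs. The other spindle genes with negative values were Gtse1, Dlgap5, Kif2c, Ckap2l and Tacc3, between -0.18 and -0.03. Ckap5, which encodes the microtubule polymerase that works with TACC3, and Kif20b, a kinesin gene, were at 0.02 ± 0.07 and 0.03 ± 0.10.

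Of the cytokinesis genes, Kif23 had the lowest adjusted p of the members in the fit with the replicate block. Kif23 encodes the motor of centralspindlin, which marks where the cleavage furrow forms. It was at 114, 149.6 and 114 CPM in EPZ5676 replicates 1, 2 and 3, and at 134, 172 and 135 CPM in ethanol replicates 1, 2 and 3. Replicate 2 was the highest of each group, so the groups overlapped, but each EPZ5676 library was below its partner, by log2 differences of -0.24, -0.20 and -0.25. The log2 fold change was -0.23 ± 0.14 (SE) without the replicate block, with an adjusted p of 0.752, and -0.23 ± 0.05 with it, with an adjusted p of 0.0884 in the edgeR test. Ect2, the exchange factor that centralspindlin recruits to activate RhoA, was at 178, 212 and 195 CPM with EPZ5676 and at 181, 211 and 192 CPM with ethanol, a log2 fold change of 0.0028. Anln, the gene of the furrow scaffold anillin, had a log2 fold change of -0.12 ± 0.07 and lower values in each EPZ5676 library than in its partner.

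The genes of chromosome structure were split, and they included Smc4, the member with the lowest unadjusted p without the block. Smc4 encodes an ATPase subunit common to both condensin complexes, which compact mitotic chromosomes. It was at 350.4, 368 and 373 CPM with EPZ5676, and at 315, 321 and 318 CPM with ethanol. All EPZ5676 libraries were above all ethanol libraries, and the log2 fold change was 0.19 ± 0.06 (SE), with an unadjusted p of 0.0127 and an adjusted p of 0.596 in the edgeR test. With the replicate block the adjusted p was 0.122. Smc4 was the single member with higher values in all 3 pairs (2.22%), against 19.5% of all genes.

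Cdca2 encodes the chromatin subunit that brings protein phosphatase 1 to anaphase chromosomes. It was at 107, 115 and 102 CPM with EPZ5676, and at 119, 129 and 121 CPM with ethanol, with no overlap. The log2 fold change was -0.19 ± 0.08 (SE), with an unadjusted p of 0.0439 and an adjusted p of 0.662 in the edgeR test. Top2a, the topoisomerase that untangles sister chromatids, was at 737, 766 and 761 CPM with EPZ5676 and at 762, 736 and 779.8 CPM with ethanol. Its log2 fold change of -0.0091 had a 95% interval from -0.14 to 0.13, the narrowest of the list. Mki67, the proliferation marker that coats mitotic chromosomes, was at 484, 619 and 513 CPM with EPZ5676 and at 521, 669 and 533 CPM with ethanol. The groups overlapped, both replicate 2 libraries were the highest of their group, each EPZ5676 library was below its partner, and the log2 fold change was -0.09 ± 0.12.

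Hmgb2, a DNA-bending chromatin protein gene, had the widest spread between EPZ5676 libraries on the log2 scale. It was at 19.0, 23.1 and 11.7 CPM with EPZ5676, and at 15.4, 14.6 and 14.4 CPM with ethanol. The EPZ5676 libraries lay on both sides of the ethanol libraries, and the log2 fold change of 0.29 ± 0.22 (SE) had the widest interval of the list, from -0.22 to 0.80. It was 0.51 without EPZ5676 replicate 3 and 0.06 without EPZ5676 replicate 2, when Hmgb2 was no longer the highest member. Ncapd2, a condensin I subunit gene, and Anp32e, a chaperone gene for the histone variant H2A.Z, had log2 fold changes of -0.00079 ± 0.07 and 0.01 ± 0.08 (SE).

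The genes of the nuclear envelope, which breaks down and reforms in mitosis, had overlapping groups. Tmpo, which encodes lamina-associated polypeptide 2, was at 306, 271 and 311 CPM with EPZ5676 and at 307, 286 and 302 CPM with ethanol. Lbr, the lamin B receptor gene, was at 339.7, 336 and 349 CPM with EPZ5676 and at 337, 350.2 and 343 CPM with ethanol. In both, the ranges overlapped and the 95% intervals stayed within -0.19 and 0.16 (log2). Rangap1, the activator of the Ran GTPase that guides nuclear transport and spindle assembly, was at 163, 170.1 and 138 CPM with EPZ5676 and at 142, 164 and 139.9 CPM with ethanol, and overlapped.

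Groups that did not overlap were found for 8 members. Lower EPZ5676 libraries were seen for 7 (15.6%), against 7.64% of all genes, and higher ones for Smc4 (2.22%), against 7.22% of all genes.

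**Figure D2:**
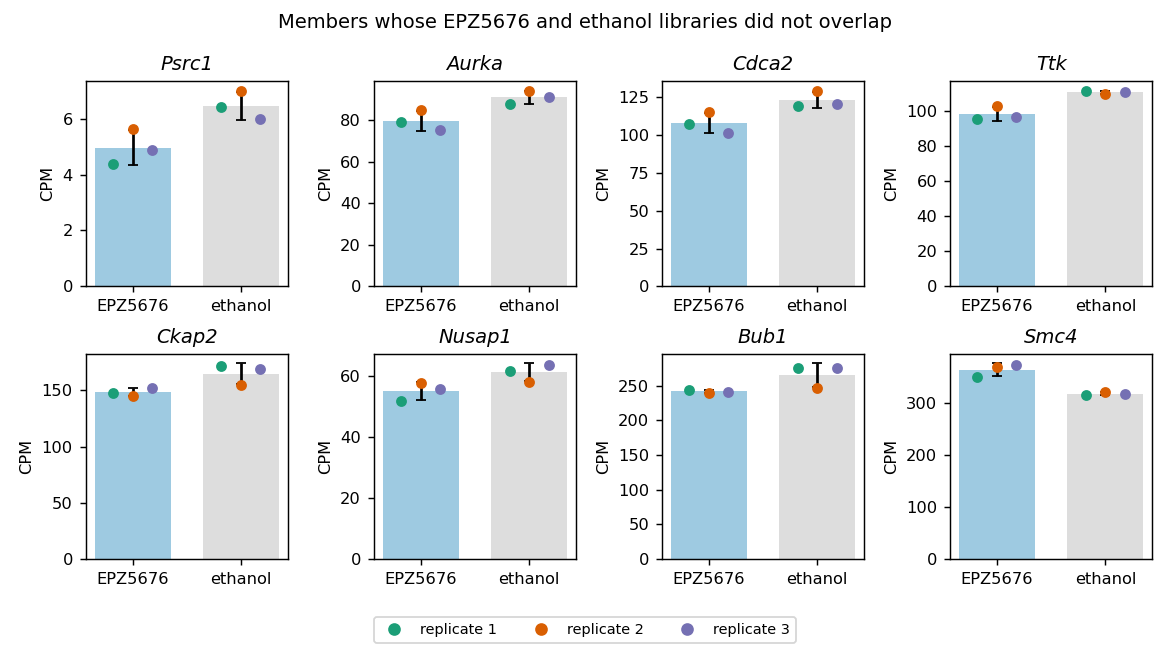
CPM of the 8 members whose EPZ5676 and ethanol libraries did not overlap. Bars are means, whiskers are the SD over 3 libraries and points are replicates 1, 2 and 3. Smc4 averages 364 with EPZ5676 and 318 with ethanol, and the other 7 genes are lower with EPZ5676, Ttk for example at 98.3 against 111.

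The small downward lean was found in pairs 1 and 3 and not in pair 2. The median log2 difference of the 45 genes, EPZ5676 minus ethanol, was -0.12 in pair 1, 0.02 in pair 2 and -0.15 in pair 3. Over all genes the medians were 0.0016, -0.0039 and -0.02. In pair 1, 34 members were lower with EPZ5676, against 49.8% of all genes, in pair 2, 21 members, against 50.6%, and in pair 3, 38 members, against 52.7%. In all 3 pairs, 16 members were lower (35.6%), against 22.3% of all genes. In 28 of the 45 members the pairs did not all go the same way, as in 8646 of all 14855 genes.

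**Figure D3:**
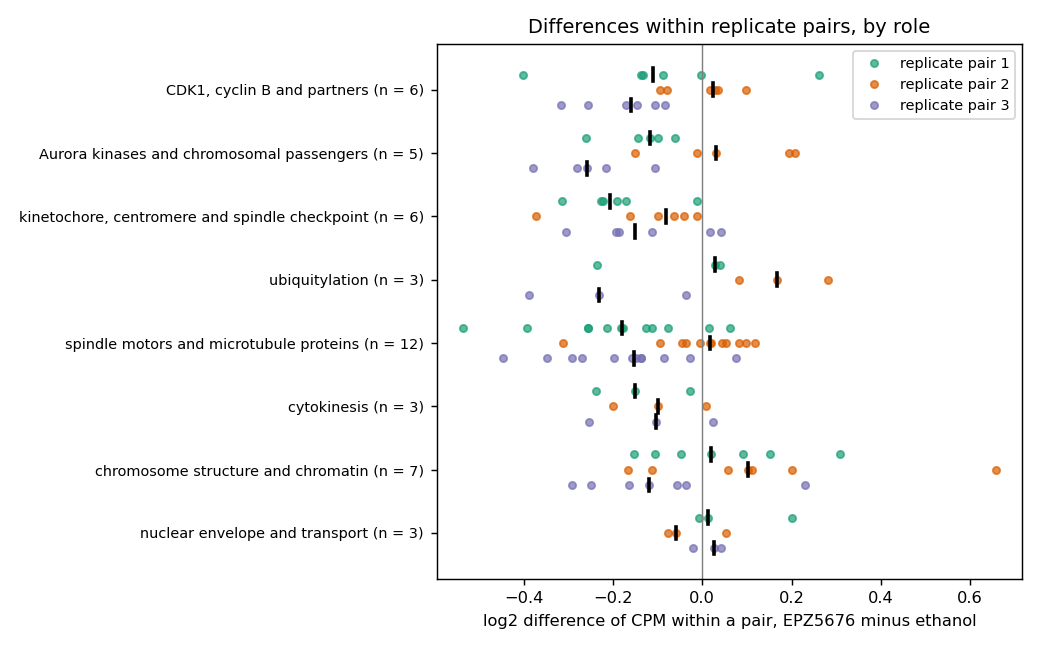
Log2 differences within replicate pairs, EPZ5676 minus ethanol, for the 45 genes sorted by role. Each point is a gene in a pair and each black tick is the median of a role group in that pair. The medians of the kinetochore group (-0.21, -0.08 and -0.15) and of the cytokinesis group (-0.15, -0.10 and -0.10) are below 0 in all 3 pairs. The spindle group has medians of -0.18, 0.02 and -0.15. Single genes of the kinetochore group differ from its median, with Nuf2 and Cenpf above 0 in pair 3. The cytokinesis group has 3 genes, so its medians are the values of Anln, and Ect2 lies slightly above 0 in pairs 2 and 3.

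Replicate 2 differed from replicates 1 and 3 within both groups, by more than the treatment groups differed for several members. Each replicate 2 library was set against the mean log2 CPM of replicates 1 and 3 of its own group. Hjurp was higher in replicate 2 by 0.38 with EPZ5676 and 0.58 with ethanol, Kif23 by 0.40 and 0.35, and Mki67 by 0.31 and 0.35. Ndc80 was at -0.26 with EPZ5676 and -0.56 with ethanol on the same measure, and Cdc25c at -0.23 and -0.51. The sign was the same in both groups for 30 of the 45 genes, against 71.7% of all genes. Hmmr (-0.05 with EPZ5676, -0.53 with ethanol), Aurkb (0.07 and -0.45) and Cdca3 (0.01 and -0.39) were low mainly in ethanol replicate 2.

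**Figure D4:**
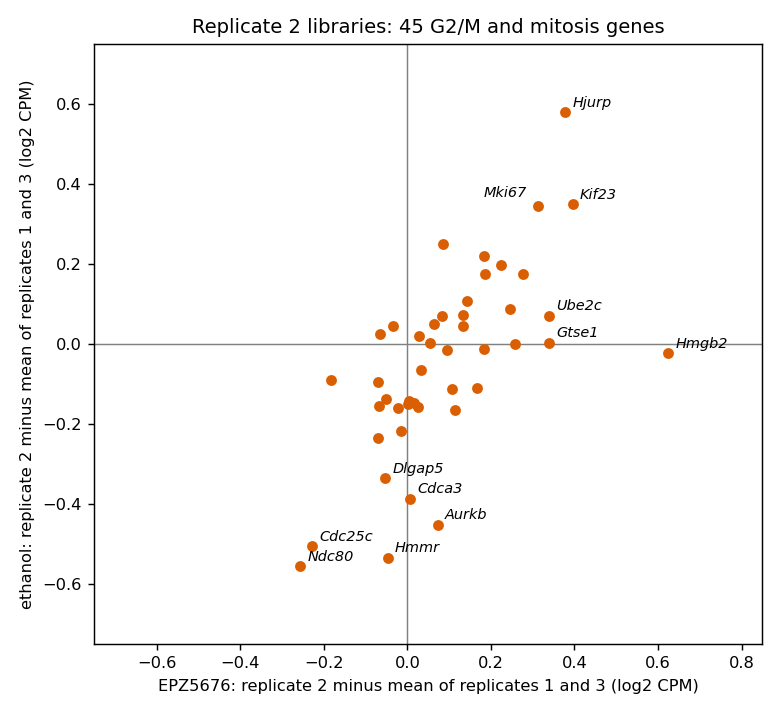
Deviation of replicate 2 from the mean of replicates 1 and 3 on the log2 CPM scale, with EPZ5676 on the horizontal axis and ethanol on the vertical axis, for the 45 genes. Hjurp, Kif23 and Mki67 lie at the upper right, Ndc80 and Cdc25c at the lower left, and Hmgb2 is high in EPZ5676 replicate 2 alone, by 0.62.

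The summed fibroblast markers also set the replicate 2 libraries apart. Their 15 genes, none of them at 0, summed to 1389, 1847 and 1485 CPM in EPZ5676 replicates 1, 2 and 3, and to 1387, 2418 and 1503 CPM in ethanol replicates 1, 2 and 3. Their median log2 difference was -0.19, -0.52 and -0.10 in pairs 1, 2 and 3. Not every fibroblast marker followed the sum. Col1a1, Col1a2 and Sparc, for example, were highest in replicate 2 of both groups. Fn1, Dcn, Lum and Pdgfra were not highest in EPZ5676 replicate 2, and Pdgfra was lowest in replicate 2 of both groups. Leydig and peritubular markers summed to 37.0, 53.6 and 42.7 CPM over 7 genes with EPZ5676 and to 40.02, 83.6 and 36.0 CPM with ethanol, again highest in replicate 2. The part of RNA from fibroblasts or other somatic cells in the members' values was not tested. Without pair 2, the fit with the replicate block, which then has 1 residual degree of freedom, called 8 members lower (17.8%), against 2.91% of all genes, and 1 higher (2.22%), against 2.45% of all genes, by edgeR's test. These were Hmmr, Ndc80, Aurkb, Kif23, Cdca3, Dlgap5, Gtse1 and Cdc25c, with log2 fold changes between -0.37 and -0.25 and adjusted p between 0.00736 and 0.0464, and Smc4 at 0.19 with an adjusted p of 0.0402. Without pair 3 the same fit called Hmgb2 alone, higher at 0.49 (adjusted p = 0.0317). That is 2.22% of the members, against 3.26% of all genes higher, and it called 0 members lower, against 1.84% of all genes. Without pair 1 it called 0 members and 0 of all genes. The 4 libraries of pairs 1 and 3 without the block gave 0 members, with a smallest adjusted p of 0.131, against 0.027% of all genes lower and 0.0405% higher.

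The levels of different members can be compared only per length. Per kilobase of exon (GENCODE M21), Top2a reached 144.5 CPM in EPZ5676 libraries and 145.4 in ethanol libraries, and Cdc20 reached 143.5 and 134.5, the highest of the list. Psrc1 was the lowest, at 2.86 CPM per kilobase with EPZ5676 and 3.72 with ethanol, followed by Hjurp at 3.74 and 4.46. Cdk1 was at 21.9 and 23.2 CPM per kilobase, below its partners Ccnb1 (62.3 and 66.9) and Ccnb2 (51.9 and 55.8), a measure that depends on the annotated exon length of each gene.

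Another 101 mitotic genes, listed by function, were all tested. Their median log2 fold change was -0.04, and 64 (63.4%) were negative, against 51.7% of all genes. None passed over all genes in edgeR's test, with or without the replicate block, and the smallest adjusted p with the block was 0.0856, that of Prc1. Prc1, which encodes the antiparallel microtubule bundler of the central spindle and a partner of centralspindlin, was at 143, 144 and 140.3 CPM with EPZ5676, and at 163, 168 and 172 CPM with ethanol. All its EPZ5676 libraries were below all ethanol libraries, and its log2 fold change was -0.24 ± 0.06 (SE), with an unadjusted p of 0.00611 and an adjusted p of 0.596.

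By function, the 15 genes of mitotic entry had a median of -0.06, from -0.26 for Mastl, the kinase that restrains the phosphatase opposing CDK1, to 0.10 for Pkmyt1, an inhibitory CDK1 kinase. The 7 FOXM1, B-MYB and MuvB genes encode factors known for binding promoters of mitotic genes. They had a median of -0.03, from -0.20 for Lin52 to 0.13 for Lin54. The 17 centromere genes had a median of -0.09, from -0.27 for Cenpl to 0.17 for Cenpt. The 16 other kinetochore and checkpoint genes had a median of -0.0023, from -0.15 for Dsn1 to 0.17 for Mad1l1, with 8 negative and 8 positive. The 18 genes of the APC/C, securin and separase had a median of -0.04, from -0.20 for Sgol1, the shugoshin that protects centromeric cohesin, to 0.25 for Fzr1, the APC/C coactivator of mitotic exit. The 22 other motor, spindle and cytokinesis genes had a median of -0.07, from -0.25 for Depdc1a to 0.11 for Kifc1.

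The condensin genes were the list with a positive median, 0.11, and 4 of 6 had positive values, against 48.3% of all genes. Ncaph2, Ncapg2 and Ncapd3 encode the subunits particular to condensin II. Ncaph2 was at 179.9, 167 and 169 CPM with EPZ5676, and at 158, 131 and 164 CPM with ethanol. Ncapg2 was at 265, 256 and 266 CPM with EPZ5676 and at 247, 249 and 239 CPM with ethanol, and Ncapd3 at 312, 284 and 329 CPM against 292, 242 and 295 CPM. In Ncaph2 and Ncapg2 all EPZ5676 libraries were above all ethanol libraries, as in 7.22% of all genes. All 3 genes were higher in each pair, as were 19.5% of all genes. The log2 fold changes of Ncaph2, Ncapg2 and Ncapd3 were 0.19 ± 0.09, 0.10 ± 0.06 and 0.16 ± 0.10 (SE). Their edgeR adjusted p was 0.700, 0.758 and 0.754. These 3 genes were named after their values were seen. Of the condensin I subunits, Ncapg was at 0.12 ± 0.08 and Ncaph at -0.09 ± 0.09, and Smc2, the ATPase partner of Smc4, was at -0.03 ± 0.09.

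The S phase genes are transcribed ahead of the G2/M wave. Over their 43 genes the median log2 fold change was -0.03, and 23 (53.5%) were negative, against 51.7% of all genes. Within pairs 1, 2 and 3 the medians were -0.08, 0.05 and -0.05. Whether this list differed from the G2/M members was not tested. Cdc6, a licensing factor of replication origins, was at 52.3, 60.8 and 58.9 CPM with EPZ5676, and at 66.7, 73.3 and 67.9 CPM with ethanol. Its log2 fold change was -0.27 ± 0.09 (SE, edgeR adjusted p = 0.601), the lowest of that list, and the highest was 0.18 ± 0.06 for Atad2, a chromatin ATPase gene. None of the 43 genes passed over all genes, with or without the block.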

How the data were processed

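RNA was measured in 3 EPZ5676 and 3 ethanol libraries. The deposited values are raw counts, whole numbers for each gene symbol. The submitters' processing notes name Bowtie, STAR, edgeR, featureCounts and the build mm9, and per the labels' protocols the libraries were made with a stranded mRNA kit. Not given in the sources used here are versions, settings, the annotation, strand use in counting and the treatment of multi-mapped reads. A deposited table of repeat families was not used.

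Counts were analysed in R 4.3.3 with edgeR 4.0.16. filterByExpr kept 14855 of 24495 symbols. TMM factors adjusted the library sizes, and the contrast EPZ5676 over ethanol was tested by the 2-sided quasi-likelihood test with Benjamini-Hochberg adjustment over all tested genes at 0.05. Intervals are 95% intervals from the approximate SE (the log2 fold change over the root of F). Differences within pairs use log2 CPM with a prior count of 2. Alternatives used limma 3.58.1 and DESeq2 1.42.0, other scalings and filters, the replicate block and left-out libraries. Members and lists were chosen with earlier results of these data known, so no set test or p over the list is given. Values in every library are given for members with defining roles, the 5 lowest and 5 highest log2 fold changes, those with groups that did not overlap, any called, and any with an unadjusted p under 0.05. For other mitotic genes the lowest and highest value of each list and any called gene are named. Prc1 and the condensin II genes were named after their values were seen.

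Same-numbered libraries correlated at 0.411, 0.614 and 0.335 in their deviations from the group means, each over the bound of 0.1. Other combinations lay between -0.494 and 0.278. The bound was also passed by EPZ5676 1 with ethanol 3 (0.278) and EPZ5676 3 with ethanol 1 (0.149). Each same-numbered value was the highest for its libraries, but the bound does not separate numbers 1 and 3. The numbers were treated as pairs in the blocked fit, although no label states what they mark and this check cannot settle it. The chi-square per degree of freedom between any 2 libraries was at least 3.64, so none was a copy of another. P-values set the difference between the groups against the spread between these libraries. Of the list symbols, Sgo1 and Pimreg were matched to the older symbols Sgol1 and Fam64a through the RefSeq table on GRCm38.p6, a build other than that of the counts, so no coordinates of the counted features are given. Exon overlaps with other genes, from GENCODE M21, were found for 6 members.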

Additional observations from a re-analysis of the deposited data

How the results depend on the processing

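Of the 45 members, 0 were called over all genes under 18 of the 20 alternatives, among them DESeq2, limma-voom, every scaling and filter, the replicate block over all pairs and each of the 6 libraries left out in turn. The exceptions were the blocked fits without replicate pair 2, with 9 members called, and without replicate pair 3, with 1, each with 1 residual degree of freedom. The median log2 fold change of the members was negative under all 20 alternatives, from -0.13 (blocked, without pair 2) to -0.05 (blocked, without pair 3), and from -0.12 to -0.07 when single libraries were left out. The count of all genes called was 0 in the fit as reported, under the other scalings and filters and in limma-voom. It was 97 with the replicate block, 50 with DESeq2, 10 without both replicate 2 libraries, 795 with the block without pair 2, 761 with the block without pair 3, 0 with the block without pair 1, and 0 with each of the 6 single libraries left out. With the block, and chosen after the data were seen, it was 193 with library totals alone and 293 in DESeq2, each with 0 members called. The replicate block changed no call of a member or of another named gene. The cause of these differences was not tested. Of the 45 members, 29 kept the sign of their log2 fold change under all 20 alternatives, 25 negative and Cdc20, Hmgb2, Rangap1 and Smc4 positive. Ube2c, at 0.0051, changed sign most often, in 10 of them. Ect2, Ncapd2, Anp32e, Birc5, Lbr and Top2a changed sign in 5 to 9. Library totals alone moved the median of all genes to -0.02. Hmgb2 ran between 0.02 and 0.51 over the alternatives. Psrc1 had the lowest counts, and counts of paralogs may be shared.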
